A study of Mus musculus with 24 samples.

Results

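Messenger RNA was compared between mouse peritoneal macrophages given IL-4 together with ONX-0914 and macrophages given ONX-0914 alone, with 4 libraries on each side. These are 8 of the 24 libraries of the study, chosen by the treatment in their labels and not by any measured value, and all 14692 genes that passed a filter on low counts were tested. ONX-0914 is a small-molecule inhibitor of the immunoproteasome that acts mainly on its PSMB8 (LMP7) subunit. The macrophages without IL-4 are called M0+ONX here (treatment label Control+ONX-0914) and those with IL-4 are called M2+ONX (treatment label IL4++ONX-0914). The inhibitor was therefore present in both groups, and the comparison shows what IL-4 changed in cells that carried it. The other 16 libraries were unpolarized cells (M0, label Control), IL-4 cells (M2, label IL4), and M1 cells without and with the inhibitor. The M1 cells were given LPS and IFN-γ (labels LPS+IFN-γ and LPS+IFN-γ+ONX-0914). The M0 and M2 libraries, 4 of each, were used to set the IL-4 effect under ONX-0914 beside that in its absence. Per the labels each replicate pools peritoneal macrophages of 2 to 3 mice to reach 50000 cells, and the 4 replicates of a group are independent. Strain, age and sex of the mice, doses, times and the order in which IL-4 and ONX-0914 were added were not stated in the labels used.

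IL-4 binds a receptor built on the IL-4Rα chain, which pairs with the common gamma chain or with IL-13Rα1 and activates Janus kinases. These phosphorylate STAT6, which dimerises, enters the nucleus and turns on the genes of alternative (M2) activation, among them arginase, chitinase-like proteins, the mannose receptor and the inhibitory ligand PD-L2. The proteasome degrades ubiquitin-tagged proteins. Cells in which it is inhibited are known to raise new proteasome subunits through the transcription factor NRF1, antioxidant genes through NRF2, and chaperones through HSF1.

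Total counts, in units of 1e6, were 18.8 to 19.4 in M0+ONX, 18.6 to 19.8 in M2+ONX, 18.5 to 21.8 in M0 and 19.1 to 21.5 in M2. Mitochondrial genes held 1.57% to 1.65% of the counts in M0+ONX and 1.497% to 1.59% in M2+ONX. The macrophage label was borne out by Lyz2 (lysozyme), at 8336 ± 365 CPM (counts per 1000000, mean ± SD, n = 4) in M0+ONX and 7736 ± 459 CPM in M2+ONX, by Cd68 at 2003 ± 144 and 2024 ± 82.04 CPM, and by Adgre1 (F4/80) at 188 ± 12.9 and 179 ± 13.3 CPM. The resident peritoneal factor Gata6 was at 26.4 ± 2.702 and 26.01 ± 1.84 CPM. M2+ONX replicate 4 stood apart from the other 3 M2+ONX libraries for a set of interferon-induced and inflammatory genes, and results that rest on it are given below with and without it. M1 replicate 2, a library of neither group, differed from the other M1 libraries and enters the spread that all 6 groups share. Since these are bulk libraries, fewer cells of a type and less RNA per cell cannot be told apart.

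With ONX-0914 in both groups, IL-4 still changed a large part of the transcriptome. At a Benjamini-Hochberg adjusted p under 0.05 in edgeR's quasi-likelihood test, 5974 of 14692 genes (40.7%) were called, of which 3247 rose (22.1% of the genes tested) and 2727 fell (18.6%). The split depends on the scaling, since DESeq2 size factors in place of TMM gave 2724 that rose and 3072 that fell, so no excess of either direction is read from it. Most of these changes were small, with a median size of 0.446 on the log2 scale, and 64.2% of them were below 1.5-fold. A change of at least 2-fold (a log2 change of 1) was found for 1024 genes (6.97%), namely 453 genes that rose (3.08%) and 571 that fell (3.89%). The 4 libraries of each side did not overlap for 6207 genes (42.2%), so a lack of overlap for a single gene is common here. Leaving out each of the 8 libraries, or M1 replicate 2, in turn gave between 5367 and 7021 called genes. The shares of all genes tested (40.7% called, 22.1% that rose and 18.6% that fell) are the background for the counts of list members below.

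The same comparison without the inhibitor, M2 against M0, called 5315 genes (36.2%), of which 2744 rose (18.7%) and 2571 fell (17.5%). The pair of comparisons shares no library. Of the genes called under ONX-0914, 3773 were called in the same direction without it, which is 63.2% of the genes called under the inhibitor and 71.0% of those called without. The 3773 genes comprised 1988 that rose and 1785 that fell, and 78 genes were called in opposite directions. Across the 14692 genes the log2 changes of the comparisons had a Pearson r of 0.778, a description across genes that are not independent replicates. The 529 genes (3.6%) that rose at least 2-fold without the inhibitor had a median log2 change of 1.54 there and of 1.29 under ONX-0914. The 401 genes (2.73%) that fell at least 2-fold without it had a median of -1.33 there and of -1.26 under ONX-0914, and the 571 that fell at least 2-fold under ONX-0914 had a median of -1.34 there and of -0.96 without. Each of these sets was chosen in 1 of the comparisons, so that its median there is expected to be the more extreme.

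The difference between the IL-4 effects was tested directly as an interaction term. It was called for 907 genes (6.17%), for 505 of which (3.44%) the IL-4 effect was more positive under ONX-0914 and for 402 (2.74%) more negative. This balance turned as well, to 422 and 468 with DESeq2 size factors and to 721 and 869 in a fit of the 16 libraries without M1 cells. Without M1 replicate 2 in the shared spread this count was 1672, and the lowest count with 1 library of the 4 groups left out was 660. Of the 907 genes, 308 changed in the same direction but further under the inhibitor, 206 changed less, and 393 had log2 changes of opposite sign. The scatter of log2 changes without and with ONX-0914 shows both sets on either side of the line of equal effect.

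**Figure D1:**
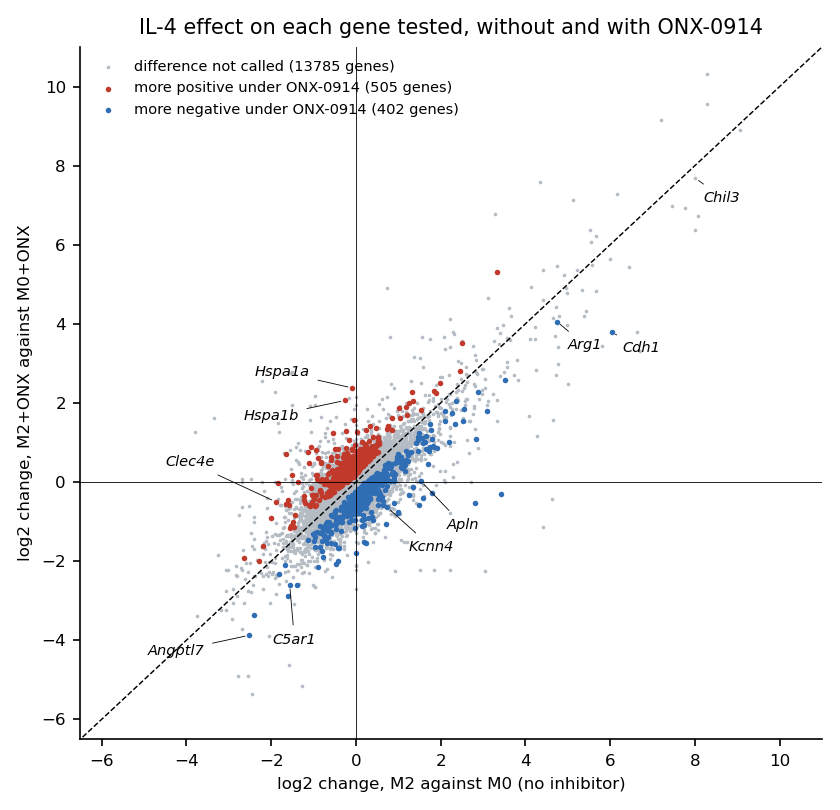
Log2 change of each of the 14692 genes tested for M2 against M0 (horizontal axis) and for M2+ONX against M0+ONX (vertical axis), with the dashed line marking equal change. Red points mark the 505 genes with a more positive and blue points the 402 genes with a more negative IL-4 effect under ONX-0914 at an adjusted p under 0.05. Chil3 lies near the line, Hspa1a and Hspa1b rise only on the vertical axis, and Cdh1 and Arg1 lie below the line.

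Receptor and kinase genes of the IL-4 pathway moved in both directions. Of 16 genes of IL-4 receptor and JAK-STAT6 signalling, 4 rose and 7 fell under ONX-0914, with a median log2 change of -0.079 against 0.027 over all genes tested, and 2 rose with DESeq2 size factors. Il4ra, the receptor's ligand-binding chain, was at 48.2, 53.4, 47.9 and 57.04 CPM in M0+ONX and 59.2, 56.6, 69.4 and 55.7 CPM in M2+ONX. The groups overlapped, with a small rise of 0.22 ± 0.078 on the log2 scale (approximate standard error, adjusted p = 0.0243). The rise was no longer called without M0+ONX replicate 1 or 3 (0.19 in both) or M2+ONX replicate 3 (0.15). It was also lost with DESeq2 size factors, in the DESeq2 Wald test and with a filter of 1 CPM. Stat6 fell, from 208 ± 9.11 to 177 ± 6.39 CPM, a log2 change of -0.24 ± 0.048 (adjusted p = 2.04e-04). Larger changes were those of the kinase Jak2, which rose by 0.80 ± 0.084 (adjusted p = 1.51e-08), and of the phosphatase Ptpn6 (SHP-1), which fell from 147 ± 4.96 to 85.5 ± 1.88 CPM (-0.78 ± 0.053, adjusted p = 2.78e-12). Pik3cd, the leukocyte phosphoinositide 3-kinase subunit, fell by 1.01 on the log2 scale (adjusted p = 3.77e-12). Stat3 fell by 0.31 with an adjusted p of 1.12e-04.

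Genes that restrain cytokine signalling, by contrast, included some of the strongest responders. In the list of 11 feedback genes 6 rose and 2 fell, with a median log2 change of 0.269. Cish, a SOCS-family inhibitor induced by STAT proteins, was at 0.651, 0.425, 1.23 and 0.474 CPM in M0+ONX and 29.7, 31.04, 32.8 and 32.6 CPM in M2+ONX. Every M2+ONX library exceeded every M0+ONX library by more than 20-fold, and the log2 change was 5.48 ± 0.18 (adjusted p = 8.67e-19) against 5.58 without the inhibitor. Socs1, which blocks Janus kinases directly, was at 0.838, 0.944, 0.731 and 0.996 CPM in M0+ONX and 10.7, 12.6, 13.4 and 11.9 CPM in M2+ONX. Its groups did not overlap either, with a log2 change of 3.78 ± 0.19 (adjusted p = 6.61e-15) against 3.39 without ONX-0914. Socs2 rose by 2.098 ± 0.20 and Socs3 by 0.52 ± 0.091, while Socs6 fell by 0.36. For none of the 11 was the difference between the IL-4 effects called, the largest being that of Socs2 (-0.51 ± 0.29, adjusted p = 0.367).

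Most transcription factors of alternative activation rose. Of 19 listed, 11 rose and 4 fell under ONX-0914, with a median of 0.38, and 10 rose and 3 fell without it, with a median of 0.41. The difference between IL-4 effects was called for 15.8% of them, against 6.17% of all genes, negative in 2 and positive in 1. Its median was -0.228, against 0.007 over all genes tested. Negative calls numbered 6 in the DESeq2 Wald test and with limma voom, and 2 to 7 when a library was left out. Irf4, a factor required for M2 gene expression downstream of STAT6, was at 2.09, 1.75, 2.101 and 2.47 CPM in M0+ONX and 30.6, 31.2, 30.9 and 33.7 CPM in M2+ONX. Groups did not overlap, and the log2 change was 3.91 ± 0.12 (adjusted p = 1.06e-19) against 4.23 in the absence of the inhibitor, a difference that was not called (-0.32 ± 0.18, adjusted p = 0.354). Batf3, an AP-1 family partner of IRF4, rose by 2.34 ± 0.15, Klf4 by 1.37 ± 0.087, Bhlhe40 by 1.01 ± 0.055 and the lipid-sensing receptor Pparg by 0.96 ± 0.085. Pparg stood at 63.7, 60.7, 57.2 and 58.9 CPM in M0+ONX and 116, 120.0, 121 and 109.9 CPM in M2+ONX, with M2+ONX above M0+ONX in every library. Egr2, an immediate-early factor of the M2 state, went from 102 ± 2.896 to 195 ± 3.33 CPM (log2 change 0.93 ± 0.068). The edgeR fit of all 24 libraries did not call a difference between IL-4 effects for Batf3, Pparg or Egr2. The DESeq2 Wald test did, at -0.66 (adjusted p = 0.016), -0.29 (adjusted p = 0.00798) and -0.28 (adjusted p = 0.0444). Among the factors that fell were Maf, by 0.86, and Nr4a1, by 1.17 on the log2 scale at levels near 1 CPM, a call that was lost without M2+ONX replicate 3. Myc, a growth regulator, rose less under ONX-0914. It was at 15.2, 16.2, 18.5 and 14.1 CPM in M0+ONX and 20.6, 18.7, 20.4 and 23.6 CPM in M2+ONX, which gave a log2 change of 0.38 ± 0.10 against 1.07 ± 0.10 without the inhibitor (difference -0.69 ± 0.15, adjusted p = 0.00366).

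The genes that define alternative activation were induced under ONX-0914, several of them to a lower level. Of 26 tested IL-4-induced effector and marker genes, 18 rose and 4 fell, with a median log2 change of 1.81, against 21 that rose, 4 that fell and a median of 2.18 without the inhibitor. Summed over the list, the level went from 3899.8 ± 97.8 CPM in M0+ONX to 8776 ± 309.9 CPM in M2+ONX, and from 3907 ± 118 CPM in M0 to 11678 ± 371 CPM in M2. The difference between IL-4 effects was called and negative for 7 of the 26, against 2.74% of all genes, and called and positive for 0. Between 6 and 9 were negative when a library was left out. Arg1, which hydrolyses arginine to ornithine (ENSMUSG00000019987, chr10:24915221-24927484 on GRCm38), was at 53.5, 61.8, 66.7 and 50.1 CPM in M0+ONX and 910.5, 1091, 1069 and 793 CPM in M2+ONX. All M2+ONX libraries lay far above all M0+ONX libraries, a log2 change of 4.06 ± 0.11 (adjusted p = 7.42e-21). Without the inhibitor Arg1 was at 67.4, 77.2, 79.6 and 65.96 CPM in M0 and 1775, 2133, 2006 and 1873 CPM in M2, so every M2 library also exceeded every M2+ONX library, and the difference of IL-4 effects was -0.69 ± 0.14 (adjusted p = 0.00179).

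Chil3, the chitinase-like protein Ym1 (ENSMUSG00000040809, chr3:106147554-106167564), was at 5.72, 6.23, 6.39 and 7.16 CPM in M0+ONX and 1273, 1396, 1397 and 1195 CPM in M2+ONX, a 206-fold rise (log2 7.69 ± 0.11, adjusted p = 4.23e-27). Its close relative Chil4, whose reads may be shared with Chil3, had 0 counts in the 4 M0+ONX libraries and 246 in the 4 M2+ONX libraries, at least 86.6-fold higher when 3 counts are allowed over the M0+ONX group. The mannose receptor gene Mrc1 (CD206) was at 119, 121, 121 and 118 CPM in M0+ONX and 336, 355, 373 and 335 CPM in M2+ONX. The groups were far apart, the log2 change was 1.55 ± 0.073, and this was less than the 2.097 ± 0.074 seen without ONX-0914 (difference -0.55 ± 0.10, adjusted p = 9.60e-04). The same held for the transglutaminase gene Tgm2, with 1.75 ± 0.080 against 2.26 ± 0.081 (difference -0.51 ± 0.11, adjusted p = 0.00418). Cdh1 (E-cadherin), a marker of macrophage fusion, had the largest called difference of the list. It was at 0.419, 0.142, 0.3197 and 0.284 CPM in M0+ONX and 4.01, 4.32, 4.22 and 3.87 CPM in M2+ONX and, without ONX-0914, at 0.145, 0.245, 0.241 and 0.166 CPM in M0 and 12.5, 15.1, 14.3 and 11.7 CPM in M2. IL-4 raised it in both settings, by 3.79 ± 0.26 and 6.04 ± 0.25 on the log2 scale, with a difference of -2.25 ± 0.48 (adjusted p = 0.00380). Itgax (CD11c) went from 948 ± 70.1 to 1219.9 ± 42.6 CPM (log2 0.36 ± 0.057, against 0.70 without).

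For 2 of the 7 genes, Clec10a and Matk, no rise was called under ONX-0914 in the edgeR fit of all 24 libraries. The lectin gene Clec10a (CD301a) was at 1.72, 3.96, 3.38 and 2.75 CPM in M0+ONX and 4.68, 4.42, 3.97 and 3.13 CPM in M2+ONX; the log2 change of 0.46 ± 0.22 missed the threshold (adjusted p = 0.105), against 1.71 ± 0.23 without the inhibitor. Without M0+ONX replicate 2 the change was 0.63 and was called (adjusted p = 0.0384), and the difference was not (adjusted p = 0.0581). With no library left out, limma voom also called the rise of Clec10a (0.57, adjusted p = 0.0176). Matk, a kinase that restrains SRC family members, was at 65.7 ± 8.97 and 68.1 ± 6.03 CPM (log2 0.050 ± 0.082, adjusted p = 0.670), while without ONX-0914 it went from 73.1 ± 3.24 to 121 ± 4.13 CPM. Other effectors showed lower point estimates whose difference was not called. Pdcd1lg2, which encodes PD-L2, was at 0.372, 0.236, 0.274 and 0.284 CPM in M0+ONX and 12.5, 13.3, 11.8 and 13.8 CPM in M2+ONX, a log2 change of 5.43 ± 0.19 against 6.46 ± 0.17 (difference -1.02 ± 0.39, adjusted p = 0.130). The lectin Mgl2 rose by 4.83 ± 0.29 against 5.67, and Retnla (the resistin-like protein RELMα), low throughout, by 2.04 ± 0.33 against 3.13. Slc7a2, an arginine importer, was at 30.4, 29.02, 29.3 and 29.5 CPM in M0+ONX and 648, 743, 719.7 and 783 CPM in M2+ONX, with no overlap (log2 4.61 ± 0.075 against 4.41, difference 0.21 ± 0.093, adjusted p = 0.231). The 4 listed genes that fell in both settings were Il1rn, the interleukin-1 antagonist, F13a1, Cd163 and, by 0.17, Plk2.

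**Figure D2:**
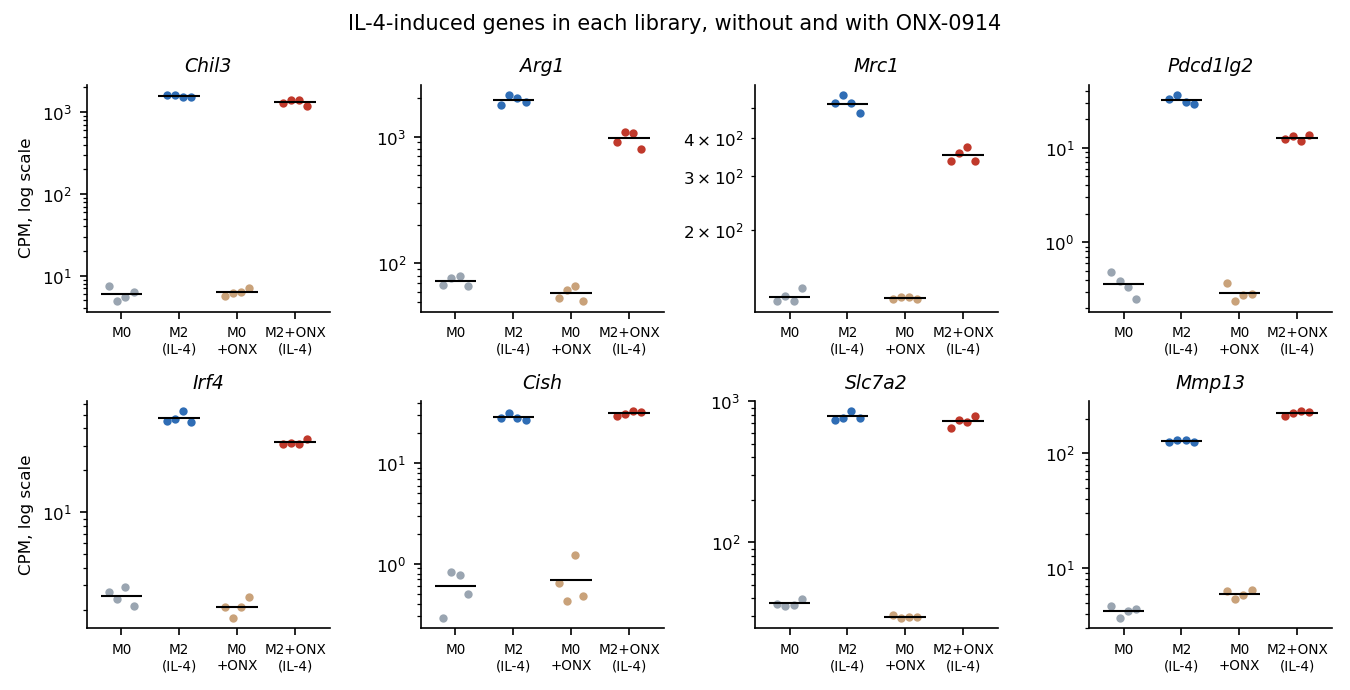
CPM (log scale) of 8 IL-4-induced genes in each library of M0, M2, M0+ONX and M2+ONX; points are the 4 libraries of a group and bars their means. For all 8 genes the IL-4 libraries lie above the libraries without IL-4. Arg1, Mrc1, Pdcd1lg2 and Irf4 are lower in M2+ONX than in M2, Mmp13 is higher, and Chil3, Cish and Slc7a2 are close.

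STAT6 dimers prefer the half-sites TTC and GAA with any 4 bases between them, whereas other STAT proteins prefer a 3-base spacer (TTCNNNGAA). Both motifs read the same on either strand. In windows from 250 bases before to 50 after RefSeq transcript starts (GRCm38.p6), the 4-base motif was found in 6.95% of 32851 windows. Among windows of the genes tested here its share was 5.64%. It was found in 8 of 26 windows (30.8%) of the effector list, for which 21 genes matched, and these 8 belonged to 6 genes. Genes that rose at least 2-fold under ONX-0914 held it in 10.3% of windows, and those that fell at least 2-fold in 6.09%. The 3-base motif was in 8.30% of all windows, in 6.88% of those of genes tested and in 3 of 26 windows (11.5%) of the effector list. It was in 10.3% and 7.27% of windows of genes that rose and fell at least 2-fold. A match describes letters and is not evidence of binding. The stretches below are printed as examples from genes named here that rose, and the capitals mark the matches.
Tmem26, chr10:68723496-68723744, plus strand: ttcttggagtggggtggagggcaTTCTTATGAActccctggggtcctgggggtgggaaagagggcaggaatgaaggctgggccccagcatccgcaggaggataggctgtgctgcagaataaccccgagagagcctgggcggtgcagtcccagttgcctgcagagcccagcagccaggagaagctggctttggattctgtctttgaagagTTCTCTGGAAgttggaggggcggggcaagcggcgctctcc
Pdcd1lg2, chr19:29410807-29410876, plus strand: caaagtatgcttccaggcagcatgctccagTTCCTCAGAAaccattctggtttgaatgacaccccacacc
Retnla, chr16:48842434-48842503, plus strand: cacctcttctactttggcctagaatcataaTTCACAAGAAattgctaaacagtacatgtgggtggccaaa
Mrgprg, chr7:143766974-143767025, minus strand: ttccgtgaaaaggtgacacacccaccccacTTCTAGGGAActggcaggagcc
Chil3, chr3:106167698-106167766, minus strand: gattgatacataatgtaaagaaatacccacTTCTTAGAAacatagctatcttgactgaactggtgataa
Cish, chr9:107296629-107296678, plus strand: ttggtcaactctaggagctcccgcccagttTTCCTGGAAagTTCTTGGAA
Of these, Tmem26 held a pair of 4-base matches, Pdcd1lg2, Retnla and Mrgprg held 1 each, Chil3 held a 3-base match, and Cish held a pair of 3-base matches next to its start.

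The largest rises beyond the effector list were taken under the naming rule given below. In order of size they were Mrgprg, Aldh1a3, Sprr2a3, Col6a5, Sprr2a1, Tmem26, Cish, Mmp13 and Il1rl1, with Chil3, Pdcd1lg2 and Slc7a2 among them by rank. Mrgprg, an orphan receptor of the Mas-related family, had no count in M0+ONX and was at 7.83, 8.39, 7.85 and 8.24 CPM in M2+ONX, at least 230.5-fold higher when 3 counts are allowed over the M0+ONX group. Without the inhibitor it was at 1.98 ± 0.229 CPM in M2 and again had no count in M0, at least 56.9-fold higher. Because it had no count in either group without IL-4, the fitted difference between its IL-4 effects depends on how zeros are treated. It was called with limma voom (adjusted p = 0.0104) and not with edgeR (adjusted p = 1.00). Tmem26, a membrane protein, was at 3.72, 5.05, 3.29 and 3.84 CPM in M0+ONX and 186, 205, 199.9 and 199 CPM in M2+ONX (log2 5.63 ± 0.10, adjusted p = 1.04e-24). Aldh1a3, which makes retinoic acid, rose from 0.0582 ± 0.0446 to 9.996 ± 1.05 CPM, the collagen VI chain Col6a5 from 0.349 ± 0.215 to 43.1 ± 5.73 CPM, and the IL-33 receptor Il1rl1 (ST2) from 0.327 ± 0.198 to 10.2 ± 1.73 CPM. The near-identical small proline-rich genes Sprr2a1 and Sprr2a3, between which reads may be split, reached 7.25 ± 1.18 and 6.67 ± 1.41 CPM. For none of the other 8 was the difference between the IL-4 effects called.

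Of 19 listed matrix-degrading enzymes and their inhibitors, 9 rose, 3 fell and 7 were not called, with a median of 0.27. Mmp13, a collagenase, was at 6.33, 5.33, 5.801 and 6.496 CPM in M0+ONX and 210.3, 225, 233 and 230.0 CPM in M2+ONX (log2 5.23 ± 0.11, adjusted p = 3.52e-23), against 4.24 and 128 CPM without ONX-0914. The protease inhibitor Timp1 was at 8.24, 6.65, 5.62 and 7.21 CPM in M0+ONX and 40.6, 39.4, 39.8 and 48.9 CPM in M2+ONX (log2 2.605 ± 0.10), with no overlap. Mmp12, the macrophage elastase, went from 7297 ± 623 to 12682 ± 122 CPM (log2 0.80 ± 0.075). Mmp19 was at 241, 220.2, 210.4 and 266 CPM in M0+ONX and 649.8, 652, 631 and 568 CPM in M2+ONX, and rose further than without the inhibitor (1.42 ± 0.076 against 0.76 ± 0.076, difference 0.66 ± 0.11, adjusted p = 2.00e-04). Mmp3 (stromelysin) fell by 1.08 on the log2 scale. The prostaglandin synthase Ptgs2 (COX-2) rose from 1.902 ± 0.0479 to 20.7 ± 1.62 CPM (log2 3.44 ± 0.15, against 2.75 without; difference adjusted p = 0.0957).

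Receptors for chemoattractants fell. Of 13 tested, 9 fell and 2 rose under ONX-0914, with a median of -1.36, and 7 fell and 2 rose without it, with a median of -1.56. Between 7 and 9 fell when a library was left out. C5ar1, the receptor for complement C5a (ENSMUSG00000049130, chr7:16246743-16259540), was at 37.9, 46.2, 44.2 and 39.3 CPM in M0+ONX and 6.16, 6.98, 8.44 and 6.05 CPM in M2+ONX. Its groups did not overlap, the level in M2+ONX being 6.06-fold lower (adjusted p = 6.28e-15), and it fell further than without the inhibitor (a log2 change of -1.56 ± 0.12 there, difference -1.04 ± 0.18, adjusted p = 3.70e-04). The chemokine receptor Cxcr3 fell from 3.98 ± 0.279 to 0.358 ± 0.125 CPM (log2 -3.45 ± 0.24), Cxcr2 by 1.86 and the decoy-like receptor Ccrl2 by 1.17 on the log2 scale. Ccr1 fell by 0.29 under ONX-0914 and did not pass the test without it (0.20 ± 0.080, adjusted p = 0.0584), and this difference was called (-0.49 ± 0.11, adjusted p = 0.00772).

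Under the naming rule, other genes with the largest falls were Angptl7, Steap4, Trpm2, Pcp4l1, Cd24a, Cxcl5, Cavin2, Clec12a, Ifitm6, Hal and Tlr9. Cd24a, a glycosylated surface protein, was at 68.8, 75.8, 70.6 and 61.4 CPM in M0+ONX and 12.3, 11.7, 11.2 and 10.2 CPM in M2+ONX (log2 -2.61 ± 0.085, adjusted p = 5.39e-19), against -2.44 without the inhibitor (difference -0.17 ± 0.12, adjusted p = 0.486). Steap4, a metal reductase, went from 16.3 ± 1.05 to 1.57 ± 0.322 CPM and the cation channel Trpm2 from 7.31 ± 1.03 to 0.986 ± 0.175 CPM. Both fell further than without ONX-0914, with differences of -0.95 ± 0.22 (adjusted p = 0.00833) and -1.28 ± 0.31 (adjusted p = 0.0109). The same was found for the angiopoietin-like gene Angptl7 (-1.36 ± 0.33, adjusted p = 0.00968) and for Hal, a histidine-degrading enzyme (-1.26 ± 0.31, adjusted p = 0.0119). Tlr9, a receptor for unmethylated DNA, fell by 2.12 on the log2 scale, against 1.43 without.

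Lectin and Fc receptors moved in both directions. Among 11 C-type lectin receptors, 3 rose and 6 fell with ONX-0914 in both groups (median -0.39), whereas 6 rose and 4 fell without it (median 0.27). The difference was called for 7 of the 11, against 6.17% of all genes, negative in 5 and positive in 2. Clec7a (dectin-1) went from 573 ± 15.4 to 999.8 ± 18.3 CPM (log2 0.80 ± 0.15), and Clec4d was at 352, 317, 316 and 367 CPM in M0+ONX and 108, 117, 102 and 118 CPM in M2+ONX, with no overlap and a log2 change of -1.61 ± 0.079. The inhibitory receptor Clec12a fell by 2.32 and further than without the inhibitor (difference -0.50 ± 0.12, adjusted p = 0.00978). Clec5a and Clec4a2 turned direction. Clec5a, an activating receptor, was at 23.03, 23.9, 20.6 and 21.1 CPM in M0+ONX and 17.8, 14.97, 16.8 and 16.8 CPM in M2+ONX and at 28.6, 29.3, 27.5 and 25.5 CPM in M0 and 32.7, 35.0, 32.7 and 33.3 CPM in M2, a change of -0.42 ± 0.10 with ONX-0914 (adjusted p = 0.00119) against 0.27 ± 0.093 without (adjusted p = 0.0231), and a difference of -0.69 ± 0.14 (adjusted p = 0.00170). For Clec4a2 the changes were -0.39 ± 0.12 and 0.28 ± 0.11 (difference -0.68 ± 0.16, adjusted p = 0.0108), the fall being lost without M0+ONX replicate 1 (adjusted p = 0.0546). Of 7 Fc receptor genes, 2 rose and 5 fell. Fcgr2b, the inhibitory receptor for IgG, was at 218, 215, 219.9 and 222 CPM in M0+ONX and 795, 831, 815 and 779.9 CPM in M2+ONX (log2 1.88 ± 0.063, adjusted p = 8.67e-19), all M2+ONX libraries being higher. The activating receptors Fcgr4, Fcgr3 and Fcgr1 fell. Fcgr4 went from 79.7 ± 2.22 to 35.0 ± 4.52 CPM (log2 -1.19 ± 0.087), and Fcgr3 fell by 0.60. Fcgr1, the high-affinity receptor, was at 5.58, 7.69, 6.99 and 4.84 CPM in M0+ONX and 1.38, 2.31, 2.43 and 2.33 CPM in M2+ONX, a change of -1.57 ± 0.22 against -0.49 ± 0.16 without. That difference of -1.08 ± 0.28 (adjusted p = 0.0173) was lost without M0+ONX replicate 2 or M2+ONX replicate 1.

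Proteasome genes, which stood higher in M0+ONX than in M0, rose with IL-4 in the presence of the inhibitor. All 14 genes of the 20S core rose under ONX-0914 (median 0.59), and 17 of 18 genes of the 19S regulatory particle (median 0.55). Without the inhibitor 9 of 14 and 7 of 18 rose, with medians of 0.20 and 0.12. The sum over the 20S genes was 2108 ± 74.2 CPM in M0+ONX and 3074 ± 79.8 CPM in M2+ONX, against 1217 ± 79.6 CPM in M0 and 1376 ± 40.1 CPM in M2. For the 19S genes the sums were 3503 ± 109 and 4811 ± 94.5 CPM with ONX-0914 and 2090.3 ± 81.9 and 2136 ± 67.96 CPM without. The difference between IL-4 effects was called and positive for 11 of the 14 core genes and 15 of the 18 regulatory genes, against 3.44% of all genes. The ranges were 8 to 12 and 14 to 18 when a library was left out. Psmd11, a lid subunit, was at 133, 131, 143 and 138 CPM in M0+ONX and 208, 220.0, 207 and 217 CPM in M2+ONX and, without the inhibitor, at 57.7, 53.7, 53.7 and 58.5 CPM in M0 and 57.2, 59.2, 54.5 and 54.4 CPM in M2. It was called as rising in the presence of ONX-0914, by 0.64 ± 0.047 (adjusted p = 1.36e-11) against 0.010 ± 0.049 (adjusted p = 0.899), and the difference of 0.63 ± 0.068 (adjusted p = 9.20e-07) was the largest of the 32 subunits. Psma5, a structural subunit of the core ring, was at 133, 127, 115 and 127 CPM in M0+ONX and 199, 209, 189 and 185 CPM in M2+ONX (log2 0.64 ± 0.061), and Psmb5, which carries the chymotrypsin-like site of the constitutive core, rose by 0.58 ± 0.079 (adjusted p = 9.46e-07). Psmd8 was the 1 regulatory gene that was not called (-0.016 ± 0.076, adjusted p = 0.893).

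The subunits that distinguish the immunoproteasome did not move together. Of 5 genes, 1 rose, beside 22.1% of all genes tested. Psmb10 (MECL-1) was at 52.8, 49.8, 49.7 and 49.1 CPM in M0+ONX and 169, 183, 177 and 169 CPM in M2+ONX, a log2 change of 1.79 ± 0.086 (adjusted p = 1.99e-15), against 1.76 ± 0.085 without ONX-0914 (difference 0.034 ± 0.12, adjusted p = 0.929). Psmb8 (LMP7), the main target of the inhibitor, was at 41.7 ± 1.97 and 41.6 ± 3.43 CPM (log2 -0.004 ± 0.074, adjusted p = 0.971), and Psmb9 (LMP2) at 15.5 ± 1.24 and 15.99 ± 1.11 CPM (adjusted p = 0.790). Nfe2l1, which encodes NRF1, went from 209 ± 10.2 to 233 ± 4.74 CPM (0.16 ± 0.055, adjusted p = 0.0202), a call that was lost without M0+ONX replicate 1 or 4 or M2+ONX replicate 2, with DESeq2 size factors (0.12, adjusted p = 0.0841), in the DESeq2 Wald test (adjusted p = 0.068) and with either other count filter (adjusted p = 0.0596 and 0.0637). Vcp, the p97 segregase that extracts ubiquitinated proteins, was at 559.9, 565, 544 and 592 CPM in M0+ONX and 776, 757, 755 and 686 CPM in M2+ONX (log2 0.40 ± 0.058, adjusted p = 3.07e-06; difference 0.33 ± 0.082, adjusted p = 0.0131).

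Sqstm1, which encodes the autophagy receptor p62, was at 858, 849.7, 812 and 869 CPM in M0+ONX and 1502, 1513, 1496 and 1417 CPM in M2+ONX. Every M2+ONX library was above every M0+ONX library, a log2 change of 0.81 ± 0.056 (adjusted p = 4.13e-12), compared with 0.19 ± 0.056 without the inhibitor and a difference of 0.62 ± 0.079 (adjusted p = 9.45e-06). Nfe2l2 (NRF2) fell in both settings, by 0.36 and 0.34 on the log2 scale (difference adjusted p = 0.902). Keap1, which holds NRF2 in the cytoplasm, did not pass the test with ONX-0914 (0.17 ± 0.074, adjusted p = 0.0643) and fell without (-0.29 ± 0.076), with a called difference of 0.47 ± 0.11 (adjusted p = 0.00634). Without M2+ONX replicate 4 or M1 replicate 2 the change under ONX-0914 was called as a rise (adjusted p = 0.0359 and 0.00498). Uchl1, a ubiquitin hydrolase best known from neurons, was at 49.5, 43.4, 46.2 and 46.4 CPM in M0+ONX and 79.9, 91.1, 76.9 and 82.01 CPM in M2+ONX, against 1.77 and 1.87 CPM in M0 and M2. It rose by 0.83 ± 0.077 (adjusted p = 1.33e-09) with no overlap, and was not called without the inhibitor (0.087 ± 0.17, difference 0.74 ± 0.18, adjusted p = 0.0133).

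NRF2 target genes mostly fell with IL-4 without the inhibitor and split in direction under it. Of 25 tested antioxidant targets, 9 rose and 6 fell under ONX-0914 (median 0.071), while without it 1 rose and 15 fell (median -0.27). For 13 of the 25 the difference was called and positive, against 3.44% of all genes, and for 0 negative, with 11 to 16 positive when a library was left out. Srxn1 (sulfiredoxin) was at 196, 187, 172 and 184 CPM in M0+ONX and 298, 302, 294 and 309 CPM in M2+ONX and at 166, 148, 155 and 156 CPM in M0 and 127, 127, 126 and 131 CPM in M2. It rose by 0.70 ± 0.047 with ONX-0914 (adjusted p = 2.58e-12) and fell by 0.29 without (adjusted p = 1.80e-05), with no overlap in either pair, and the difference was 0.99 ± 0.067 (adjusted p = 5.03e-10). Gclm, the modifier subunit of the enzyme that starts glutathione synthesis, was at 70.7, 72.2, 70.9 and 66.9 CPM in M0+ONX and 124, 123, 122 and 134 CPM in M2+ONX (log2 0.84 ± 0.063, adjusted p = 2.20e-11) and did not pass the test without the inhibitor (-0.10 ± 0.065, adjusted p = 0.271). Nqo1 rose by 1.36 ± 0.16 against 0.48, and the NADPH-producing enzyme Me1 by 0.42 ± 0.10 against a fall of 0.67. Prdx1, an abundant peroxiredoxin, was at 1401 ± 97.8 and 1361 ± 60.2 CPM under ONX-0914 (adjusted p = 0.657) and fell from 1084 ± 63.02 to 742 ± 44.4 CPM without. Gsr (glutathione reductase) and Fth1 (ferritin heavy chain) fell in both settings, Fth1 from 12387 ± 190.0 to 8120.4 ± 114 CPM here. Hmox1 was not called (0.071 ± 0.055, adjusted p = 0.330).

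All 20 cytosolic heat shock genes rose under ONX-0914, with a median of 0.65, against 9 that rose and 3 that fell without it and a median of 0.13, and at least 19 rose when any library was left out. The difference was called and positive for 13 of the 20 (13 to 16 when a library was left out), against 3.44% of all genes. The list summed to 4192 ± 147 CPM in M0+ONX and 7142 ± 125 CPM in M2+ONX, and to 3542 ± 63.4 and 4185 ± 133 CPM in M0 and M2. Hspa1a, an inducible HSP70 gene (ENSMUSG00000091971, chr17:34969190-34972156), was at 3.304, 3.07, 3.70 and 3.41 CPM in M0+ONX and 19.3, 15.4, 19.1 and 16.5 CPM in M2+ONX and at 2.51, 2.697, 2.56 and 2.65 CPM in M0 and 2.11, 3.05, 2.25 and 2.41 CPM in M2. The M2+ONX libraries were the highest by far, and the M0+ONX libraries also lay above every M0 and M2 library, by a smaller margin. The log2 change was 2.38 ± 0.12 (adjusted p = 3.43e-15) against -0.091 ± 0.15 (adjusted p = 0.695). The difference of 2.47 ± 0.19 (adjusted p = 4.15e-09) was the largest positive one among the called genes that the naming rule admits. Its near-identical copy Hspa1b, with which reads may be shared, gave 2.06 ± 0.11 against -0.26 ± 0.13. The constitutive chaperone Hspa8 (HSC70) was at 1475, 1436, 1328 and 1479 CPM in M0+ONX and 2889, 2989, 2787 and 2871 CPM in M2+ONX, a rise of 1.01 ± 0.053 (adjusted p = 1.46e-14) compared with 0.15 ± 0.053 without. Cryab (αB-crystallin) rose by 1.63 ± 0.074, the HSP110 gene Hsph1 by 1.38 ± 0.049 and Hsp90aa1 by 0.97 ± 0.10. The HSP40 gene Dnajb1 and the small heat shock gene Hspb8 rose here (0.69 ± 0.062 and 0.55 ± 0.10) and fell without the inhibitor (-0.18 ± 0.063 and -0.60 ± 0.12), with differences of 0.87 ± 0.089 (adjusted p = 4.32e-07) and 1.15 ± 0.16 (adjusted p = 4.78e-05). The mitochondrial chaperonin Hspd1 rose in both (0.69 ± 0.065 and 0.64 ± 0.065, difference adjusted p = 0.841).

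**Figure D3:**
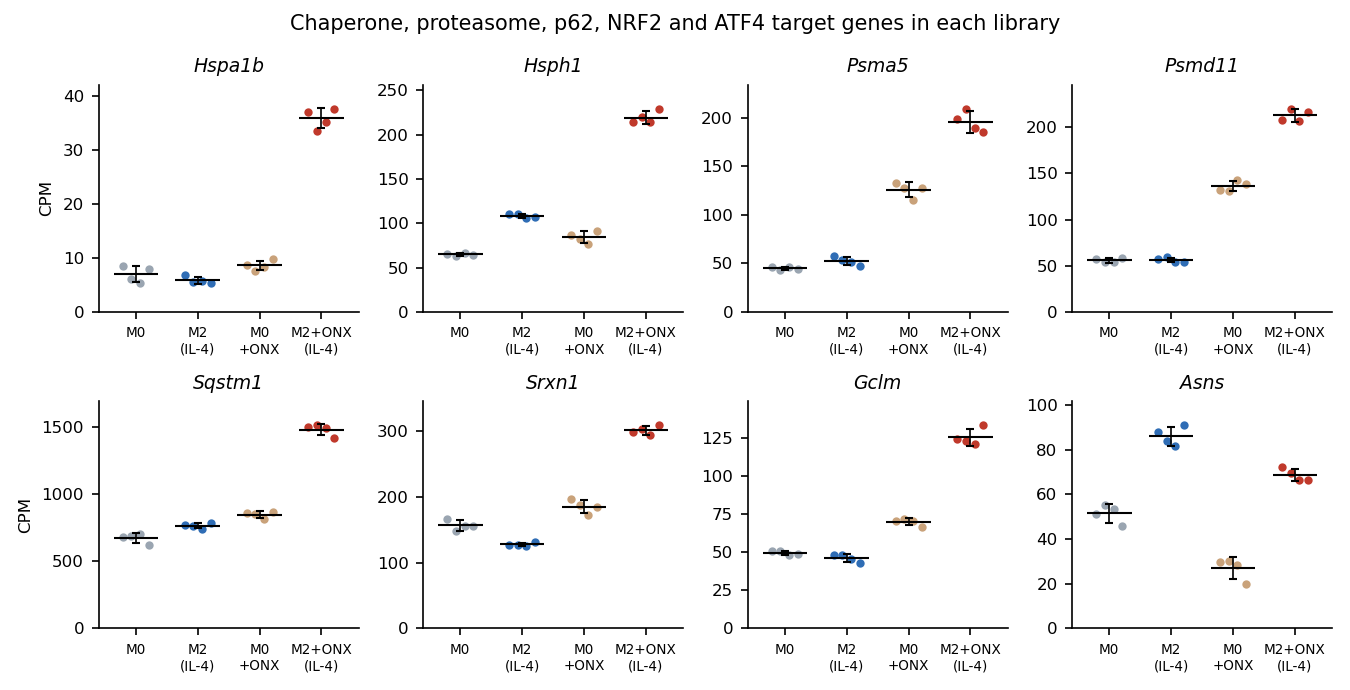
CPM (linear axis from 0) of chaperone (Hspa1b, Hsph1), proteasome (Psma5, Psmd11), p62 (Sqstm1), NRF2 target (Srxn1, Gclm) and ATF4 target (Asns) genes in each library; points are libraries, bars means and whiskers the SD of 4. For all but Asns the M2+ONX libraries are the highest of the 4 groups, while Asns is highest in M2.

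Sequence motifs known for these responses were looked for in the same promoter windows, on both strands. A heat shock element was made of GAA, TTC and GAA with any 2 bases between neighbours. It was in 0.603% of all windows, in 0.478% of those of genes tested and in 4 of 21 windows of the heat shock list. An antioxidant response element core (TGACNNNGC) was in 12.4% of all windows, in 14.3% of those of genes tested and in 8 of 28 (28.6%) of the NRF2 target list. An ATF4-type amino acid response element (TGATGNAA) was in 3.97% of all windows, in 2.35% of those of genes tested and in 7 of 21 (33.3%) of the ATF4 list. These are counts of letters in a short window, not of bound sites. An example is shown for each, with the match in capitals.
Hsph1, chr5:149636288-149636330, minus strand: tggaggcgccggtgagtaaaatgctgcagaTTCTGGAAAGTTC
Gclm, chr3:122245393-122245461, plus strand: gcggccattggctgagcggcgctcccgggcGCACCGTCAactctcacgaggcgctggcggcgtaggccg
Asns, chr6:7693195-7693262, minus strand: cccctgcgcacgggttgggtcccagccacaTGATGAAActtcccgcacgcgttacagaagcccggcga
The Hsph1 and Gclm matches are printed on the gene's strand and fit the motif when read on the opposite one.

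Genes of the integrated stress response, driven by the factor ATF4, mostly rose in both settings. For 9 of them the IL-4 effect was more positive with the inhibitor. Of 23 tested, 20 rose and 2 fell under ONX-0914 (median 0.86), and 19 rose and 1 fell without (median 0.53). The difference was called and positive for those 9, against 3.44% of all genes, and negative for 0 (8 to 13 positive when a library was left out). Levels without IL-4 were lower with ONX-0914, the list summing to 1792 ± 71.2 CPM in M0+ONX and 2248 ± 71.9 CPM in M0. With IL-4 the list summed to 2974 ± 57.7 CPM in M2+ONX and 3181 ± 62.2 CPM in M2. Atf4 itself was at 201, 190.5, 203 and 179 CPM in M0+ONX and 399, 397, 387 and 388 CPM in M2+ONX, with no overlap, a log2 change of 1.02 ± 0.058 (adjusted p = 6.61e-14) against 0.53 ± 0.057. Asns, which makes asparagine, was at 29.7, 30.01, 28.5 and 19.8 CPM in M0+ONX and 72.04, 69.6, 66.5 and 66.3 CPM in M2+ONX and at 51.3, 55.4, 53.3 and 45.8 CPM in M0 and 87.7, 83.6, 81.6 and 90.9 CPM in M2. IL-4 raised it by 1.34 ± 0.088 here and 0.74 ± 0.084 without (difference 0.60 ± 0.12, adjusted p = 0.00196). Asns levels were lower with ONX-0914 both without and with IL-4. Of the serine synthesis enzymes, Phgdh rose by 1.32 ± 0.071 against 0.85 and Psph by 1.13 ± 0.084 against 0.40, both with a called difference, and Psat1 by 1.11 ± 0.059 against 1.15 without one (adjusted p = 0.868). The pseudokinase Trib3 rose by 1.41 ± 0.10 and the death-linked factor Ddit3 (CHOP) by 1.05 ± 0.12. The cystine importer Slc7a11, also an NRF2 target, was at 19.96, 17.8, 17.3 and 17.8 CPM in M0+ONX and 30.03, 28.5, 29.5 and 33.1 CPM in M2+ONX and rose by 0.73 ± 0.14 (adjusted p = 7.68e-05), while without ONX-0914 it was not called (-0.22 ± 0.13, adjusted p = 0.193).

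Genes of the unfolded protein response of the endoplasmic reticulum changed less. Of 20 tested, 14 rose and 1 fell (median 0.31), against 8 and 2 (median 0.11) without the inhibitor. Pdia4, a disulfide isomerase, had the largest change, at 71.8, 67.8, 62.7 and 65.5 CPM in M0+ONX and 234, 231, 237 and 220.0 CPM in M2+ONX (log2 1.78 ± 0.057), and rose less than without ONX-0914 (2.11 ± 0.058, difference -0.33 ± 0.079, adjusted p = 0.0109). The luminal chaperone Hspa5 (BiP) rose by 0.40 ± 0.041 here and did not pass the test without (0.008 ± 0.041, adjusted p = 0.903), with a difference of 0.40 ± 0.058 (adjusted p = 7.50e-05).

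**Figure D4:**
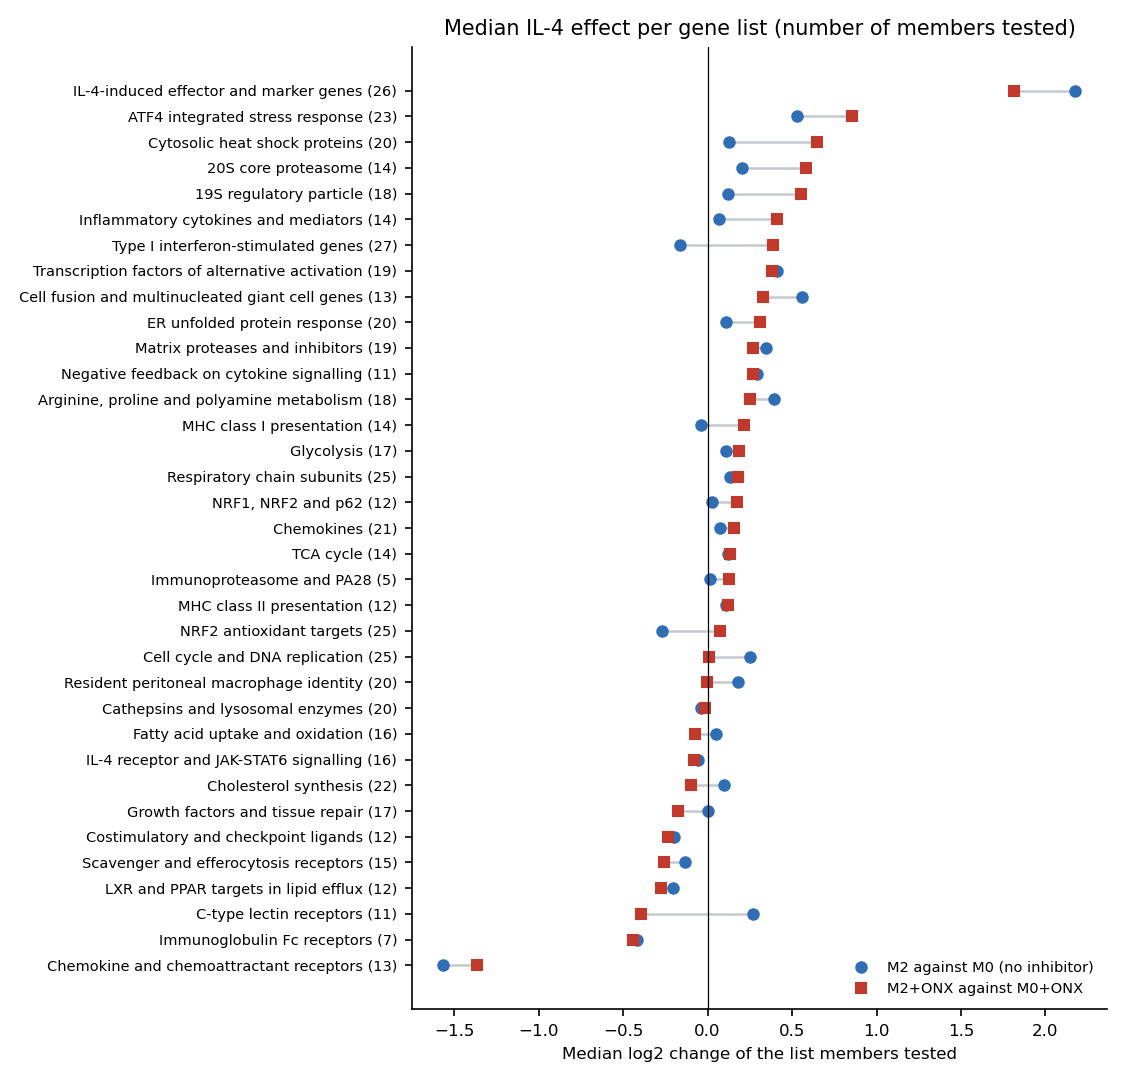
Median log2 change of the tested members of each gene list for M2 against M0 (blue circles) and M2+ONX against M0+ONX (red squares), with the number of members tested in brackets. The effector list has the highest medians in both; the proteasome, heat shock and ATF4 lists lie further right under ONX-0914, and the NRF2 target and interferon lists cross 0. The median over all genes tested was 0.027 with and 0.006 without the inhibitor.

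Metabolic genes gave smaller shifts. Of 18 genes of arginine, proline and polyamine metabolism, 8 rose and 3 fell, led by Arg1 and Slc7a2. The other arginase, Arg2, rose from 2.15 ± 0.585 to 6.73 ± 0.6596 CPM. Ass1, which rebuilds arginine from citrulline, went from 9.67 ± 1.56 to 17.6 ± 5.35 CPM and rose by 0.87 ± 0.15 (adjusted p = 4.60e-05) but was not called without ONX-0914 (-0.24 ± 0.16; difference 1.11 ± 0.22, adjusted p = 0.00176). Odc1, the first enzyme of polyamine synthesis, rose by 0.46 ± 0.069. Of 17 glycolytic genes 9 rose and 5 fell, Hk2 rising by 0.87 ± 0.066 and Ldha by 0.81 ± 0.072 and Pfkl falling by 0.71. Of 25 respiratory chain subunits 15 rose and 0 fell (median 0.18, and 10 to 18 that rose when a library was left out), the largest change being the 0.39 ± 0.067 of Uqcrc1. Of 12 genes of LXR and PPAR lipid efflux 2 rose and 7 fell. Abca1, which exports cholesterol, fell from 131 ± 10.2 to 39.9 ± 6.38 CPM (log2 -1.71 ± 0.089), and Mylip by 1.71. Of 22 cholesterol synthesis genes 3 rose and 6 fell, and Dhcr7 rose by 1.14 ± 0.072. Of 25 cell cycle genes 8 rose and 2 fell (median 0.009), against 12 and 0 without ONX-0914 (median 0.25). The shares called under ONX-0914 in the cholesterol (40.9%) and cell cycle (40.0%) lists were near the 40.7% of all genes tested. Mcm5 rose by 0.35 ± 0.12 here and by 1.09 ± 0.11 without (difference -0.74 ± 0.16, adjusted p = 0.00524), the rise here being lost without M0+ONX replicate 4 or M2+ONX replicate 3.

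Some genes were called with only 1 of the settings or turned direction. Lpl, lipoprotein lipase, was at 1555, 1705, 1628 and 1389 CPM in M0+ONX and 822, 884, 917 and 872 CPM in M2+ONX, with every M2+ONX library lower (log2 -0.84 ± 0.093, adjusted p = 2.80e-08). Without ONX-0914 it was at 1409, 1578, 1615 and 1406 CPM in M0 and 1686, 1756, 1749 and 1581 CPM in M2 and was not called (0.17 ± 0.092, adjusted p = 0.153), and the difference was -1.02 ± 0.13 (adjusted p = 1.14e-05). Kcnn4, a calcium-activated potassium channel, was at 27.4, 31.2, 26.8 and 23.8 CPM in M0+ONX and 15.8, 18.2, 18.2 and 17.8 CPM in M2+ONX and fell by 0.64 (adjusted p = 7.04e-05). Without the inhibitor IL-4 raised it, from 49.2 ± 3.65 to 82.2 ± 6.86 CPM (0.74 ± 0.11), a difference of -1.38 ± 0.16 (adjusted p = 2.40e-06). The peptide hormone gene Apln was at 3.44, 4.15, 4.61 and 3.51 CPM in M0+ONX and 4.58, 4.27, 3.63 and 3.47 CPM in M2+ONX, with overlapping groups (0.021 ± 0.17, adjusted p = 0.937), but rose by 1.53 ± 0.17 without ONX-0914 (difference -1.51 ± 0.24, adjusted p = 1.76e-04). Syn1, a vesicle-associated protein, likewise was not called under ONX-0914 (-0.14 ± 0.20 against 1.34 ± 0.18, difference adjusted p = 6.73e-04). The amino acid transporter Slc36a2 rose in both, by 1.797 ± 0.24 and 3.09 ± 0.21, and its difference of -1.29 ± 0.33 (adjusted p = 0.0176) was lost without M0+ONX replicate 1 or 3. In the other direction Map1a, a microtubule-associated protein, was at 7.44, 9.96, 7.13 and 9.67 CPM in M0+ONX and 22.9, 17.2, 19.02 and 23.9 CPM in M2+ONX and rose by 1.28 ± 0.12 (adjusted p = 3.61e-09), while it was not called without the inhibitor (-0.22 ± 0.15; difference 1.504 ± 0.19, adjusted p = 1.14e-05). Nol3, an apoptosis repressor, rose from 5.92 ± 0.823 to 10.4 ± 0.509 CPM and was below 1 CPM in M0 and M2. The non-coding host gene Snhg11 was not called here (0.48 ± 0.20, adjusted p = 0.0525) and fell without the inhibitor (-1.11 ± 0.32, difference 1.59 ± 0.37, adjusted p = 0.00846). Its rise under ONX-0914 was called with limma voom (adjusted p = 0.02), with no count filter (adjusted p = 0.0323) and in the 16-library fit (adjusted p = 0.0296). It was also called in a fit of the 8 libraries alone and without M0+ONX replicate 3, M2+ONX replicate 1 or 2, or M1 replicate 2. Gucy1a1, a subunit of the nitric oxide receptor, fell by 1.08 here (adjusted p = 3.25e-04) and was not called without (0.20 ± 0.21, difference -1.28 ± 0.31, adjusted p = 0.0101). Among growth factors, Igf1 rose by 0.56 ± 0.070 against 1.06 ± 0.068 (difference -0.51 ± 0.10, adjusted p = 0.00131), and Spp1 (osteopontin) was not called here (-0.10 ± 0.070, adjusted p = 0.257) but rose by 0.47 ± 0.070 without. Thbs1 (thrombospondin-1) rose further, from 57.03 ± 7.23 to 177 ± 14.96 CPM (1.63 ± 0.091 against 1.04 ± 0.091, difference adjusted p = 0.00399).

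Interferon-stimulated genes were where a single library weighed most. Of 27 tested, 12 rose and 0 fell under ONX-0914 (median 0.39), a share called of 44.4%, near the 40.7% of all genes tested. Without the inhibitor 4 rose and 3 fell (median -0.16). Without M2+ONX replicate 4 the counts under ONX-0914 were 8 and 2. The list summed to 410 to 422 CPM over the M0+ONX libraries and to 449 to 722 CPM over the M2+ONX libraries. Isg15, a ubiquitin-like protein, was at 2.98, 3.68, 3.29 and 4.13 CPM in M0+ONX and 3.63, 6.28, 4.47 and 8.78 CPM in M2+ONX, with replicate 4 the highest. Its log2 change of 0.72 ± 0.20 (adjusted p = 0.00558) was 0.44 without that library (adjusted p = 0.06). The difference from the effect without ONX-0914, 0.96 ± 0.28 (adjusted p = 0.0410), was lost in 11 of the fits that left out a library, and was 0.69 without replicate 4 (adjusted p = 0.115). Rtp4 was at 3.02, 2.26, 2.01 and 2.23 CPM in M0+ONX and 2.86, 6.38, 2.33 and 14.8 CPM in M2+ONX, and its change of 1.46 ± 0.37 became 0.69 without replicate 4. The same library was the highest for the chemokine Ccl5, at 0.716, 0.603, 0.894 and 4.76 CPM in M2+ONX, whose rise of 1.65 ± 0.55 became 0.42 and was no longer called (adjusted p = 0.456), nor was it with limma voom. It was also highest for Acod1, the itaconate synthase, at 5.26, 4.15, 4.11 and 4.88 CPM in M0+ONX and 3.48, 5.98, 5.41 and 13.4 CPM in M2+ONX, for which the rise of 0.62 ± 0.24 (adjusted p = 0.0449) became 0.105 (adjusted p = 0.662) and was also lost without M0+ONX replicate 2, 3 or 4 and with each of the other methods, filters and sample sets except no count filter. Its difference of 1.51 ± 0.33 (adjusted p = 0.00435) became 1.001 (adjusted p = 0.00427) without replicate 4. H2-M2, a non-classical class I gene, was at 3.21, 3.11, 3.43 and 5.03 CPM in M0+ONX and 7.11, 9.04, 6.51 and 21.6 CPM in M2+ONX, with all 4 M2+ONX libraries above M0+ONX, and its change went from 1.58 ± 0.27 to 1.03 without replicate 4, and its difference from 1.62 ± 0.36 to 1.076 (adjusted p = 0.00127). The lectin Clec4e (Mincle) was at 82.9, 68.4, 67.9 and 85.8 CPM in M0+ONX and 39.3, 43.9, 39.3 and 93.7 CPM in M2+ONX. Its fall of 0.50 on the log2 scale was larger, at 0.90, without replicate 4, and was lost without M0+ONX replicate 1 or 4 or M2+ONX replicate 1, 2 or 3 and in the DESeq2 Wald test. Zbp1, a nucleic acid sensor, and the antiviral gene Rsad2 rose by 1.701 ± 0.10 and 0.57 ± 0.087. The difference for Zbp1 (0.50 ± 0.15, adjusted p = 0.0398) was lost with DESeq2 size factors (adjusted p = 0.0534), with limma voom (adjusted p = 0.0695), in the 16-library fit (adjusted p = 0.0683) and in 10 of the fits that left out a library. What set replicate 4 apart was not tested.

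**Figure D5:**
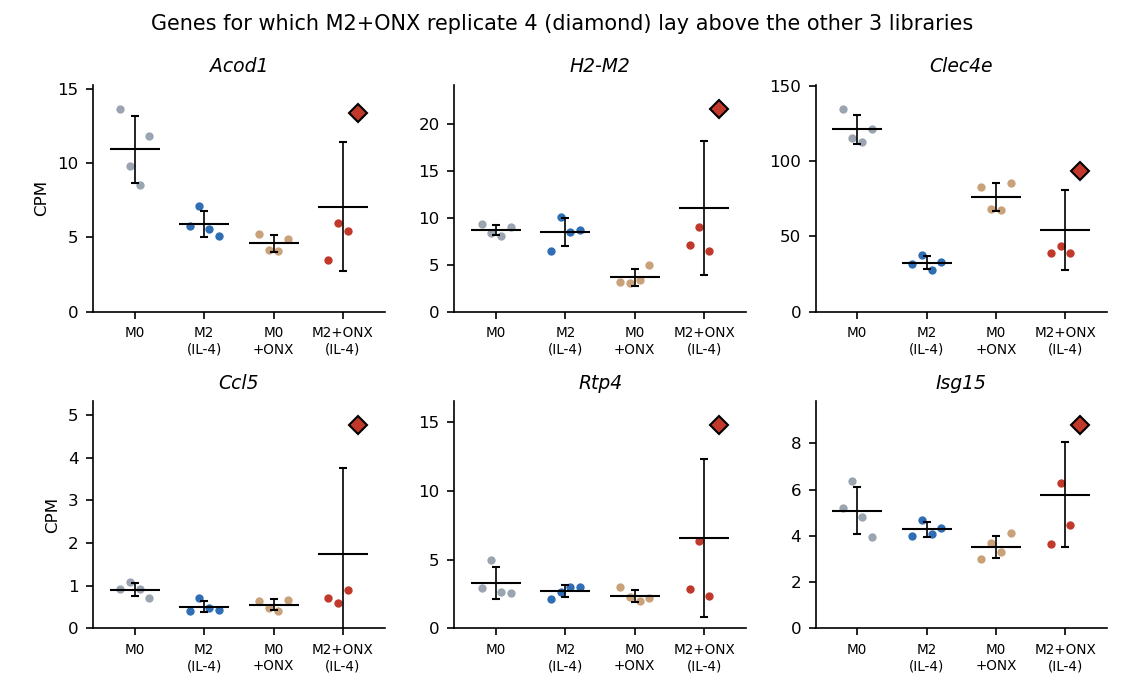
CPM (linear axis from 0) of 6 genes in each library of M0, M2, M0+ONX and M2+ONX; points are libraries, bars means and whiskers the SD of 4, and the diamond is M2+ONX replicate 4. That library lies above the other 3 of its group for each gene, most clearly for Ccl5 (4.76 against 0.603 to 0.894 CPM).

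Chemokines moved in both directions. Of 21 tested, 6 rose and 5 fell (median 0.15). The monocyte attractants Ccl2 and Ccl7 rose. Ccl2 was at 32.2, 29.4, 31.6 and 36.6 CPM in M0+ONX and 101, 90.5, 94.3 and 107 CPM in M2+ONX (log2 1.597 ± 0.090, adjusted p = 5.99e-14), and Ccl7 went from 12.7 ± 2.82 to 49.8 ± 4.03 CPM. Ccl9 and Ccl24 rose by 1.58 ± 0.12 and 2.38 ± 0.40. The inflammatory chemokines Ccl3 and Ccl4 and the neutrophil attractants Cxcl1 and Cxcl5 fell by 1.34, 1.41, 1.76 and 2.36 on the log2 scale. Ccl6 rose from 354 ± 26.9 to 407 ± 34.4 CPM, less than without ONX-0914 (0.20 ± 0.077 against 0.92 ± 0.077, difference -0.72 ± 0.11, adjusted p = 1.03e-04). The rise was lost without M0+ONX replicate 1 or 4 or M2+ONX replicate 2 or 3. It was also lost with DESeq2 size factors, in the DESeq2 Wald test, with a filter of 1 CPM and in the 16-library fit. The M2-associated chemokines Ccl17 and Ccl22 were low. Ccl17 had 7 counts in all in M0+ONX and 6 in M2+ONX and did not pass the filter. Without the inhibitor it had 2 counts in M0 and 27 in M2, a ratio of 13.6, and the difference was not tested. Ccl22 was at 2.32 ± 0.732 CPM in M0+ONX and 2.99 ± 1.01 CPM in M2+ONX (0.37 ± 0.26, adjusted p = 0.266). Of 14 inflammatory cytokines and mediators 3 rose and 4 fell, Tnf falling by 0.70, Il18 by 0.71 and Il15 by 1.08. Nos2, the enzyme of the M1 state that competes with arginase, had 0 counts in M0+ONX and 3 in M2+ONX, which gives no fold.

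Few antigen presentation genes changed by much. Of 12 genes of class II presentation 2 rose and 0 fell, but with DESeq2 size factors, in the DESeq2 Wald test and with a filter of 1 CPM 0 rose and 1 fell, and in the 16-library fit 2 rose and 2 fell. Cd74, the invariant chain, was at 30.1 ± 2.53 and 34.4 ± 2.53 CPM (0.19 ± 0.067, adjusted p = 0.0228; 0.15 and adjusted p = 0.0799 with DESeq2 size factors), and H2-Aa at 5.64 ± 0.635 and 5.39 ± 0.4196 CPM (adjusted p = 0.637). The count of 2 was 0 without M0+ONX replicate 2 and 1 without M0+ONX replicate 1 or M2+ONX replicate 1, 2 or 3. Ciita, the class II master regulator, was not called here (0.27 ± 0.32, adjusted p = 0.542) and rose by 1.04 ± 0.21 without ONX-0914, a difference that was not called (adjusted p = 0.297). Of 14 class I genes 7 rose and 2 fell, H2-K1 by 0.27 ± 0.070 and B2m by 0.27 ± 0.054.

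Marker genes of macrophages and of other cells that a peritoneal sample can hold were summed in each library. Of the macrophage markers 1 of 11 rose, Csf1r, by 0.80 ± 0.059, and 5 fell, Cd14 furthest at -1.103 ± 0.087; the 11 summed to 11831 to 13165 CPM in M0+ONX and 11034 to 12425 CPM in M2+ONX. B cell markers summed to 61.9 to 67.5 and 60.7 to 68.8 CPM, mostly Cd22, with 0 of 11 that rose and 3 that fell (1 in a fit of the 8 libraries alone). T and NK cell markers summed to 27.2 to 32.6 and 15.2 to 17.98 CPM, nearly all of it Cd28, which fell; 1 of 4 tested fell. Neutrophil markers summed to 52.7 to 66.5 and 72.5 to 93.2 CPM, mostly Csf3r, with 2 of 4 that rose and 1 that fell, and with Ly6g and S100a9 without a count. Dendritic cell markers summed to 6.79 to 9.77 and 17.3 to 23.4 CPM, 2 of 6 rising, chiefly Batf3, which the factor list also holds. Mast cell markers summed to 3.06 to 4.001 and 4.32 to 6.56 CPM and eosinophil markers to 13.7 to 16.3 and 11.96 to 14.0 CPM, mostly Siglecf. Mesothelial and fibroblast markers summed to 955 to 1106 and 801 to 944 CPM, mostly collagen genes, with 1 of 11 that rose and 5 that fell. Their part in the results above was not tested.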

How the data were processed

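Polyadenylated RNA of mouse peritoneal macrophages was sequenced in 24 libraries, 4 in each of 6 groups, and the authors deposited 1 table of raw read counts per gene with 54532 features. Per the submitters' processing notes the tools were FastQC 0.11.9, cutadapt 2.8, Bowtie2 2.2.5 and Picard, with genome build mm10. The counting tool, its strand setting and its annotation are not named there, so reads of overlapping, antisense and near-identical genes cannot be told apart. Gene symbols were found for 54409 features, and the 123 without one held 0.0282% of the counts.

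Counts were filtered with edgeR's filterByExpr (14692 genes, 99.927% of the counts), scaled by TMM and fitted with edgeR 4.0.16 in R 4.3.3 over all 24 libraries, which leaves 18 residual degrees of freedom. Quasi-likelihood tests gave M2+ONX against M0+ONX, M2 against M0, and the difference of these effects, with Benjamini-Hochberg adjustment over all 14692 genes at a threshold of 0.05. Log2 changes are given ± standard error, and CPM are per 1000000 scaled counts, as mean ± SD over 4 libraries. Alternatives used DESeq2 1.42.0, limma 3.58.1, other filters and samples, and each library left out in turn.

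The members, the 43 gene lists and the rules were chosen with earlier results of these data known. Of 668 listed genes 664 matched (Tm7sf4, Clec6a, Irg1 and Ear11 did not), and 609 were tested. Genes were named by rule. It took the 12 largest rises and falls among called genes with at least 5 CPM in the higher group and no overlap. It also took the 8 largest called differences in each direction, with at least 5 CPM in the highest of the 4 groups. Clone, predicted and pseudogene names were left out of both. Up to 4 called members of each list with the largest change, and a fixed set, were added. The other genes named were chosen after their values were seen, and some results are not reported here. A fold against a group with 0 counts is a lower bound that allows 3 counts over the group. The heat shock, antioxidant and ATF4 motifs were chosen after the results were known. In counts simulated from these libraries and run on 14108 genes, 50 genes each were changed by 1.25, 1.5, 2 and 4-fold. The test under ONX-0914 called 21, 35, 45 and 49 of them. In a like run on 14113 genes the test of the difference called 6, 26, 40 and 49. Genes with few counts were not changed, and all other genes were equal in all groups. In the real comparison 40.7% of genes were called, so these shares need not hold there.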

Additional observations from a re-analysis of the deposited data

Results flagged for a closer look

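In 21 of 348 groups of 4 libraries, counting each named gene in M0+ONX and in M2+ONX, 1 library lay far from the other 3 by Dixon's criterion. Chance alone marks about 1 in 20 groups. M0+ONX replicate 1 was the outlying library for Ccl24 (0.977 CPM) and F13a1 (2.699 CPM). M0+ONX replicate 3 was the outlying library for Clec7a (550.3 CPM) and Matk (79.02 CPM). M0+ONX replicate 4 was the outlying library for Asns (19.8 CPM) and H2-M2 (5.03 CPM). M2+ONX replicate 1 was the outlying library for Cd163 (0.0955 CPM), Cxcl1 (0.668 CPM), Cxcr2 (1.098 CPM), Egr2 (189.9 CPM) and Fcgr1 (1.38 CPM). M2+ONX replicate 3 was the outlying library for Il15 (5.36 CPM) and Klf4 (38.5 CPM). M2+ONX replicate 4 was the outlying library for Abca1 (49.5 CPM), Ccl5 (4.76 CPM), Clec4e (93.7 CPM), H2-M2 (21.6 CPM), Mylip (2.23 CPM), Nos2 (0 CPM), Socs3 (16.5 CPM) and Timp1 (48.9 CPM).

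For 76 of the named genes the IL-4 effect with ONX-0914 differed from that without it by edgeR's test of the difference. The values are differences of log2 changes. More positive under ONX-0914 were Hspa1a 2.47, Hspa1b 2.32, Nol3 1.75, H2-M2 1.62, Snhg11 1.59, Acod1 1.51, Map1a 1.504, Clec4e 1.399, Hspb8 1.15 and Ass1 1.11. Smaller positive differences were those of Me1 1.08, Srxn1 0.99, Isg15 0.96, Slc7a11 0.95, Gclm 0.94, Nqo1 0.88, Dnajb1 0.87, Hspa8 0.87, Rsad2 0.83 and Cryab 0.77. Below these came Hsp90aa1 0.76, Uchl1 0.74, Psph 0.73, Mmp19 0.66, Hsph1 0.63, Psmd11 0.63, Sqstm1 0.62, Gsr 0.61, Asns 0.60 and Clec4d 0.59. Then followed Thbs1 0.59, Prdx1 0.51, Zbp1 0.50, Atf4 0.49, Keap1 0.47, Phgdh 0.46, Cd14 0.42, Psma5 0.41, Ccrl2 0.40 and Hspa5 0.40. Next were Psmb5 0.39, Vcp 0.33 and B2m 0.28. More negative under ONX-0914 were Cdh1 -2.25, Apln -1.51, Syn1 -1.48, Kcnn4 -1.38, Angptl7 -1.36, Slc36a2 -1.29, Trpm2 -1.28, Gucy1a1 -1.28, Hal -1.26 and Clec10a -1.25. Smaller negative differences were those of Fcgr1 -1.08, C5ar1 -1.04, Lpl -1.02, Steap4 -0.95, Mcm5 -0.74, Ccl6 -0.72, Arg1 -0.69, Clec5a -0.69, Myc -0.69 and Clec4a2 -0.68. After these came Matk -0.67, Spp1 -0.58, Mrc1 -0.55, Tgm2 -0.51, Igf1 -0.51, Clec12a -0.50, Ccr1 -0.49, Fcgr3 -0.45, Adgre1 -0.45 and Odc1 -0.37. Following in size were Pik3cd -0.34, Itgax -0.33 and Pdia4 -0.33. The positive differences include heat shock, NRF2 target and proteasome genes, and the negative ones include Cdh1, Arg1 and Mrc1. Without M2+ONX replicate 4 the difference was 1.076 for H2-M2 and 1.001 for Acod1. The differences of Isg15, Zbp1, Psmb5, B2m, Cd14, Pik3cd, Nqo1, Odc1, Fcgr1, Slc36a2, Clec10a and Uchl1 were no longer called when some single libraries were left out, and those of Zbp1, Psmb5, B2m and Cd14 also with DESeq2 size factors. Other named genes gained a called difference when M1 replicate 2 was left out. It was negative for Jak2, Batf3, Hk2, Ldha, Fcgr4, Pparg, Ccl9, Clec7a and Egr2. It was positive for Arg2, Trib3, Ptgs2, Rtp4, Ccl3, Ccl5, Fth1, H2-K1 and Psmd8.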

How the results depend on the processing

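No named gene that was called in the main or the alternative run reversed direction, but the balance of higher and lower calls turned. Changes of sign in genes called in neither run were not counted. Under ONX-0914, 3247 genes rose and 2727 fell, against 2724 and 3072 with DESeq2 size factors, 2785 and 3114 in the DESeq2 Wald test, 2811 and 2913 with a filter of 1 CPM, 3365 and 3395 in a fit of the 16 libraries without M1 cells, and 3326 and 3331 in a fit of the 8 libraries alone. Without the inhibitor 2744 and 2571 became 2525 and 2788 with DESeq2 size factors. Requiring a log2 change of at least 1 gave 1024 genes under ONX-0914 (453 that rose, 571 that fell), 930 without it (529 and 401) and 81 for the difference (35 more positive and 46 more negative). The count of called differences was the one that moved most with the method. It was 1847 with limma voom and quality weights (1041 and 806), 1590 in the 16-library fit (721 and 869), 1672 without M1 replicate 2 (949 and 723), 1167 in the DESeq2 Wald test (553 and 614) and 890 with DESeq2 size factors (422 and 468), against 505 more positive and 402 more negative with edgeR and TMM. The cause was not tested. Leaving out single libraries gave 5367 to 7021 called genes under ONX-0914 (2925 to 3950 that rose and 2442 to 3071 that fell), 4739 to 6348 without it (2293 to 3325 and 2276 to 3023) and 660 to 1672 differences (383 to 949 and 277 to 723). With DESeq2 size factors the median change of all genes under ONX-0914 was -0.014 against 0.027. Whether the replicate numbers pair the libraries could not be settled. In their deviations from the group means, same-numbered M0+ONX and M2+ONX libraries correlated at 0.023 to 0.095, and those with different numbers at -0.121 to 0.102. A replicate block gave 6043, 5364 and 979 called genes. Across named genes and settings, 98 calls under ONX-0914 were lost and 23 gained, against 4100 results that kept their side of the threshold. Those that were called also kept their direction. For the differences, 136 calls were lost and 102 gained, against 5729 that stayed the same by this rule. Depth limits the genes near 1 CPM, and a p that missed the threshold does not show equal levels.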
